A study of Glycine max with 24 samples.

Results

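WRKY factors are plant transcription factors with a conserved DNA-binding domain, and 52 soybean WRKY genes were measured in root tips of 2 genotypes given aluminum (Al) alone or Al with magnesium (Mg). The genes were those whose symbol in the probe-to-gene table was WRKY followed by digits, out of 6029 genes with a probe set of their own. They held 103 probe sets, of which the one with the highest mean over the 24 arrays stood for its gene. A further 6 probe sets were tied to a WRKY gene and another gene and were left out, so WRKY13, WRKY49 and WRKY61 were not analysed here. For 4 genes (WRKY16, WRKY23, WRKY36 and WRKY39) the probe set was of a type that can also detect related transcripts, so their values are uncertain in that respect.

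The series asked how Mg lessens Al toxicity in soybean. Seedlings of PI 416937 (here PI) and Young grew in hydroponics, and tips of 1 cm were taken from the roots after 12 or 72 h. Every group received Al at 10 µM, with or without Mg, so no group lacked Al and each difference named a Mg effect is Al plus Mg minus Al alone. The 8 groups were therefore PI with Al alone at 12 h, PI with Al alone at 72 h, PI with Al plus Mg at 12 h, PI with Al plus Mg at 72 h, and the same 4 for Young, with 3 arrays each. The labels used here give no dose of Mg. They call PI Al-sensitive and Young Al-tolerant, whereas PI 416937 is widely described as Al-tolerant, so neither word is used for the results. The labels do not say whether the 3 arrays of a group came from separate plants, and the p-values measure the spread between arrays, which may be technical.

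WRKY proteins bind short promoter elements called W-boxes through the WRKY domain and its zinc finger. The family is known for its part in defence against pathogens, in senescence and in responses to salt, drought and cold, and some members activate while others repress their targets. In Arabidopsis, WRKY46 lowers transcription of ALMT1, a malate channel gene of Al resistance. The numbers of soybean WRKY genes do not mark their Arabidopsis counterparts.

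Values are log2 of the deposited intensity, and a difference of 1 on this scale is a 2-fold change in intensity. Different probe sets bind with different strength, so values are compared between groups for a gene and not between genes. A gene passed the test when its limma p-value, adjusted by Benjamini-Hochberg over the 37593 soybean probe sets, was under 0.05. An array's background bound was the 99th percentile of its probe sets for other organisms, between 2.86 and 3.27. Arrays of a group correlated at 0.981 to 0.994 over the 33039 soybean probe sets with a mean above 2.40. EXP1, an expansin gene of growing soybean roots, was the single root marker found, and its group means lay between 10.3 and 12.4. EXP1 rose with Mg at 72 h by 1.25 in PI and by 1.83 in Young (limma, adjusted p = 7.00e-05 and 9.55e-07). The summed intensity of 5 leaf markers was 253 to 575 at 12 h and 738 to 2218 at 72 h, and of 7 seed storage markers 6 or 7 were at background in each group. With Mg at 72 h the leaf markers CAB3 (1.39) and RCA11 (0.40) rose in Young and RCABETA (−1.44) fell in PI (limma, adjusted p = 0.00445, 0.00838 and 0.0203), and the other 7 of these 10 leaf differences did not pass. NOD33, the single nodule marker found, had group means between 10.4 and 13.5, far above background, so it was not low in these root tips. It fell with Mg at 72 h (−1.43 in PI and −2.18 in Young, limma, adjusted p = 0.0345 and 0.00195). The 3′ minus 5′ difference of the P450 control, a measure of how completely transcripts were copied, was in PI at 72 h 2.51 ± 0.36 (SD, n = 3) without Mg and 4.12 ± 0.25 with it. The Young values at 72 h were 2.26 ± 0.37 without Mg and 3.80 ± 0.16 with it, and the 12 h groups lay between 2.82 and 3.09. The same difference of the actin control at 72 h was 7.99 ± 0.03 without Mg and 8.41 ± 0.17 with it in PI, and 7.88 ± 0.20 and 8.41 ± 0.04 in Young. The part of these markers and controls in the WRKY differences at 72 h was not tested. In bulk tissue, fewer cells of a type and less RNA per cell cannot be told apart.

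Most of the WRKY genes were detected, and a subset appeared above background mainly with Al alone at 72 h. Of the 52 genes, 39 were above background on every array, and WRKY38 was at background on every array. In the 18 arrays outside the groups with Al alone at 72 h, WRKY21, WRKY25, WRKY40 and WRKY64 were at background on 18. WRKY63 was at background on 16 of those 18 arrays and WRKY12 on 15. WRKY15 went against this pattern, at background on 12 of the 18 and, with Al alone at 72 h, on 2 arrays in PI and 3 in Young. The median of the 52 group means was 8.27 for PI with Al alone at 12 h and 9.13 at 72 h, and 7.84 and 9.40 for Young. With Al plus Mg it was 8.24 at 12 h and 7.75 at 72 h in PI, and 8.31 and 7.96 in Young. The number of genes with a mean over 10 was 18 in PI and 20 in Young with Al alone at 72 h, and between 6 and 8 in the other 6 groups. Such medians and counts over all probe sets are not given here, so these describe the 52 genes alone.

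**Figure D1:**
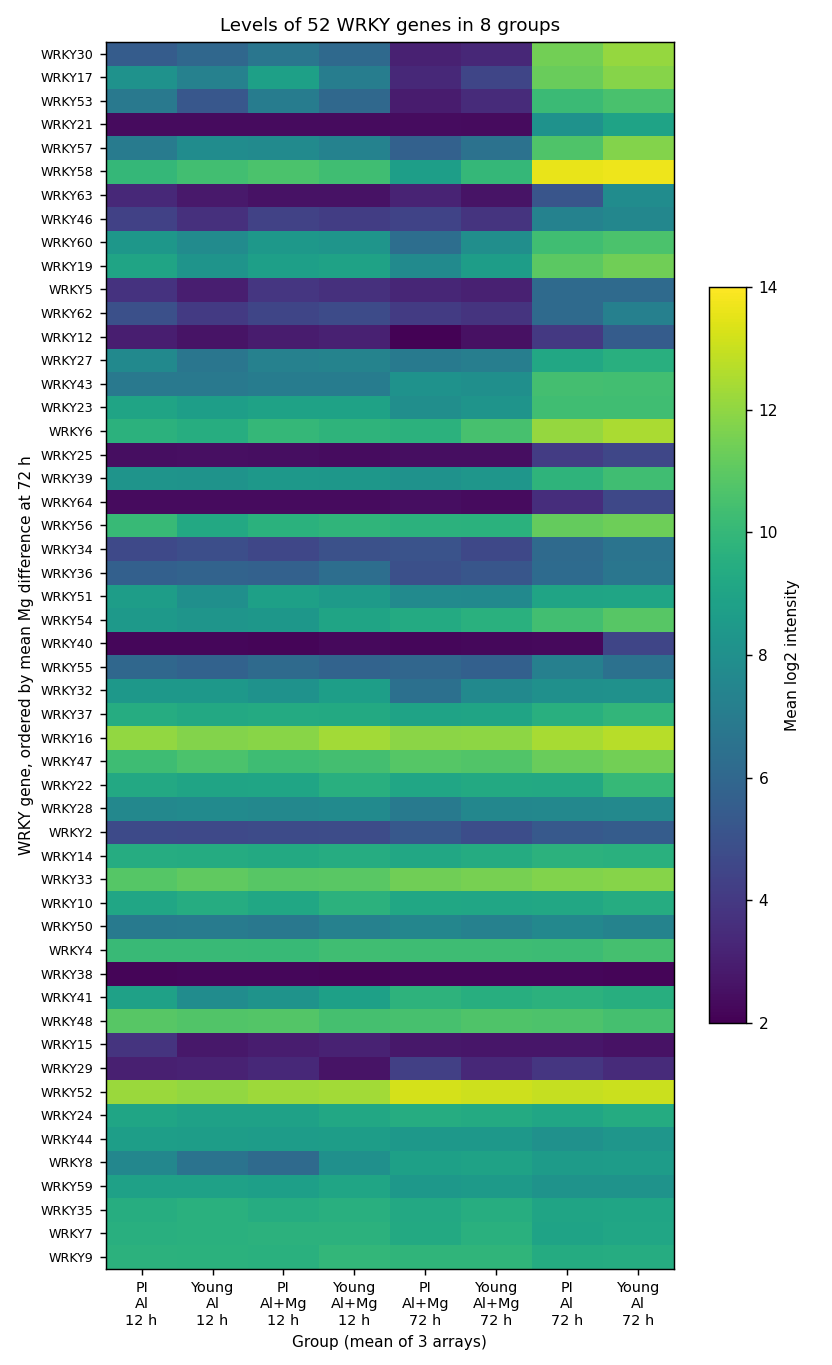
Mean log2 intensity of the 52 WRKY genes (rows) in the 8 groups of genotype, treatment and time (columns, 3 arrays each), with colour giving the level. The columns for Al alone at 72 h hold the most genes with means over 10, 18 in PI and 20 in Young, a count not set against all probe sets.

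With 72 h of treatment, most WRKY genes that differed were lower in roots given Mg with the Al. In PI, 29 of the 52 fell and 5 rose with Mg, or 55.8% and 9.62%, where 13.0% and 20.7% of all probe sets tested did. In Young, 31 fell and 3 rose, or 59.6% and 5.77%, beside 16.3% and 23.1% of all probe sets. The median difference over the 52 was −1.07 in PI and −1.10 in Young, and over all probe sets 0.06 and 0.03. With values at background set to their array's bound, the 2 WRKY medians were −0.74 and −1.10. The falls were also large, with 26 genes at least 2-fold lower in each genotype, where 7.91% of all probe sets were so in PI and 8.94% in Young. No WRKY gene that rose reached 2-fold, where 2.64% of all probe sets did in PI and 6.29% in Young. The 3 arrays with Mg lay wholly below the 3 with Al alone for 28 genes in PI and 33 in Young, and wholly above for 5 and 7. Over all probe sets the shares wholly below were 15.0% in PI and 19.9% in Young, and wholly above 36.7% and 34.4%.

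The same genes made up most of both lists. Of the 29 that fell in PI and the 31 that fell in Young, 26 were shared, which is 89.7% of the PI list and 83.9% of the Young list. No gene passed in opposite directions. The PI and Young differences came from separate arrays, and across the 52 genes they correlated with r = 0.94, a description over genes that are not independent replicates and that share arrays within each genotype. The overlap of the lists and the correlation over all probe sets are not given here. These values thus show nothing particular to the family. WRKY28, WRKY32 and WRKY55 passed as lower in PI (−0.69, −1.58 and −1.23) and missed the threshold in Young (−0.09, −0.40 and −0.81). The other probe sets of WRKY32 gave −0.09 and 0.18 in PI (limma, adjusted p = 0.654 and 0.460), so its call rests on the probe set used. WRKY2, WRKY22, WRKY25, WRKY40 and WRKY47 passed as lower in Young and missed it in PI. Of these, WRKY2 had −0.68 in Young and −0.04 in PI, WRKY22 −0.76 and −0.17, and WRKY47 −0.70 and −0.42. The difference between the genotypes itself passed for WRKY32 and WRKY40 among these 8 genes. Of the 26 shared genes, 19 had the larger fitted fall in Young, a count that was not tested. The share over all probe sets is not given here, and the count takes in genes at background with Mg. For some of the 26, WRKY34 and WRKY23 among them, another probe set reversed the order of the genotypes.

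**Figure D2:**
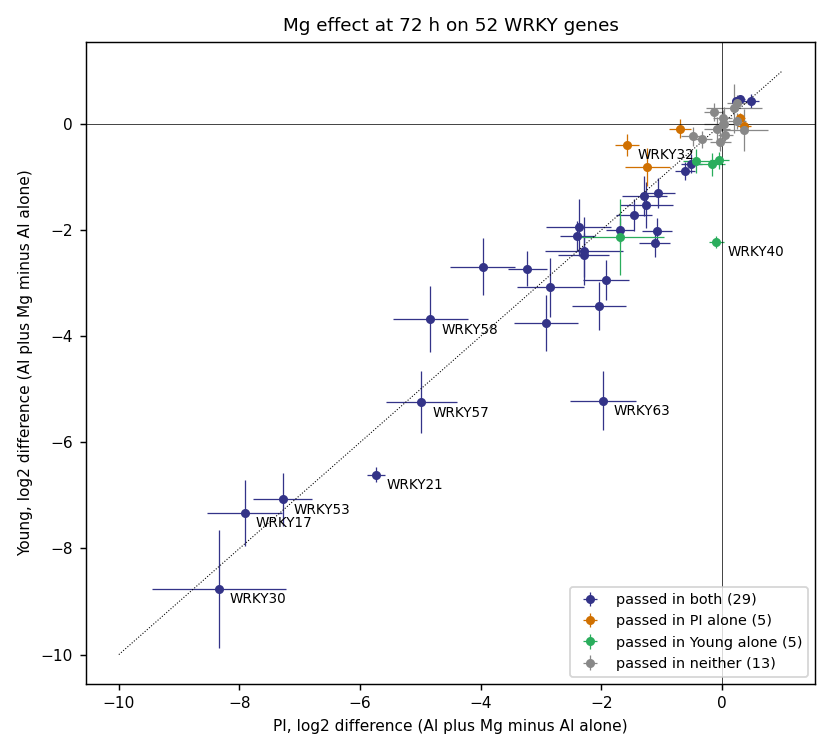
Mg effect at 72 h (log2 of Al plus Mg minus Al alone, with SE bars) as fitted for the 52 WRKY genes, PI on the x axis and Young on the y axis with a dotted line of equal differences, coloured by whether the gene passed in both genotypes, in 1 or in neither. The 26 genes lower in both genotypes run from small differences to those of WRKY30, fitted at −8.34 in PI, where its arrays with Mg are at background and only the fall of at least 299.1-fold is firm, and −8.76 in Young, and 13 genes passed in neither genotype.

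WRKY30 had the largest fitted fall in both genotypes. In PI its 3 arrays with Al alone at 72 h read 10.97, 12.15 and 11.15, and those with Mg read 3.04, 3.18 and 3.03. In Young these arrays read 11.49, 12.39 and 12.41 with Al alone and 3.31, 3.31 and 3.38 with Mg. WRKY30 was thus far above background with Al alone and at or just over it with Mg, with no overlap in either genotype. The fall in PI was at least 299.1-fold, since the Mg arrays were at background (limma, adjusted p = 1.88e-05). In Young the difference was −8.76 ± 1.11 (SE), with an adjusted p of 7.61e-06. A second WRKY30 probe set gave −8.09 in PI and −8.44 in Young.

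WRKY17 and WRKY53 behaved in a similar way. In PI at 72 h, WRKY17 read 11.50, 11.76 and 10.58 with Al alone and 3.39, 2.86 and 3.84 with Mg. In Young it read 10.94, 12.39 and 12.13 against 4.38, 4.50 and 4.61. For WRKY17 the groups lay far apart, and in Young its arrays with Mg stayed above background. The WRKY17 difference was −7.78 or lower in PI, where 1 Mg array was at background, and −7.32 ± 0.62 in Young (limma, adjusted p = 5.60e-08 and 1.02e-07). In PI at 72 h, WRKY53 read 10.62, 10.63 and 9.33 with Al alone and 3.07, 2.84 and 2.83 with Mg. In Young it read 9.85, 10.95 and 10.84 against 3.82, 2.80 and 3.79. Each WRKY53 array with Mg was thus more than 5 log2 units below each array with Al alone. WRKY53 fell at least 127.8-fold in PI, and in Young its difference was −7.04 or lower, where 1 Mg array was at background (limma, adjusted p = 1.09e-08 and 1.10e-08).

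WRKY21, whose overexpression made Arabidopsis tolerant to cold, was at background everywhere but in the groups with Al alone at 72 h. There it read 8.51, 8.05 and 7.84 in PI and 8.52, 9.15 and 9.22 in Young. In the other 18 arrays it read 2.32 to 2.43, so the groups did not overlap. The WRKY21 fall with Mg was at least 30.6-fold in PI and at least 63.7-fold in Young (limma, adjusted p = 3.76e-14 and 2.52e-15). These p-values rest on a spread pooled over the 8 groups, 6 of which were at background with little spread. WRKY63, WRKY12, WRKY64, WRKY40 and WRKY25 were likewise low or at background outside Al alone at 72 h. In Young the falls were at least 29.6-fold for WRKY63, 5.72-fold for WRKY12, 3.09-fold for WRKY64 and 2.89-fold for WRKY40 (limma, adjusted p at most 9.72e-06). In PI they were at least 1.73-fold for WRKY12 and 1.28-fold for WRKY64 (limma, adjusted p = 8.44e-04 and 0.00268). WRKY63 also passed in PI (limma, adjusted p = 0.0103), but its second probe set, with a mean of 2.92, did not (−0.82, limma, adjusted p = 0.114). WRKY25 was uneven within groups, with 4.01, 5.95 and 2.47 in PI and 2.43, 5.08 and 6.15 in Young under Al alone at 72 h. One of these WRKY25 arrays in each genotype was at background, and its adjusted p was 0.0832 in PI and 0.0259 in Young.

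WRKY57 and WRKY58 fell from a high level without reaching background. The PI arrays of WRKY57 read 10.83, 10.83 and 10.48 without Mg and 5.90, 5.42 and 5.89 with it, and its Young arrays 11.34, 11.98 and 12.00 against 6.65, 6.01 and 6.94. The PI arrays of WRKY58 read 13.71, 13.81 and 13.22 against 8.95, 8.17 and 9.11, and its Young arrays 13.16, 14.02 and 13.86 against 10.07, 9.45 and 10.46. Neither gene had overlapping groups, and each kept levels well over background with Mg. The WRKY57 difference was −4.98 ± 0.59 (SE) in PI and −5.24 ± 0.59 in Young (limma, adjusted p = 5.66e-06 and 2.12e-06). The WRKY58 difference was −4.83 ± 0.62 in PI and −3.68 ± 0.62 in Young (limma, adjusted p = 1.31e-05 and 1.35e-04). Further members fell by more than 2-fold in both genotypes. The differences in PI and Young were −3.97 and −2.69 for WRKY60, −3.23 and −2.73 for WRKY19, and −2.92 and −3.76 for WRKY46. They were −2.04 and −3.43 for WRKY62, and for WRKY5 −2.84 in PI and −3.05 or lower in Young.

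Smaller falls in both genotypes included genes with a known role in salt and drought. WRKY54, which gave salt and drought tolerance when overexpressed in Arabidopsis, fell in both (−1.06 in PI and −1.31 in Young, limma, adjusted p = 0.00728 and 0.00120). WRKY27, which raised salt and drought tolerance when overexpressed in soybean, also fell (−2.29 in PI and −2.47 in Young, limma, adjusted p = 3.87e-04 and 1.37e-04). The differences of WRKY6, WRKY23, WRKY34, WRKY36, WRKY37, WRKY39, WRKY43, WRKY51 and WRKY56 ran from −0.61 for WRKY37 in PI to −2.40 for WRKY23 in PI. In PI and Young they were −2.40 and −2.12 for WRKY23, −2.38 and −1.94 for WRKY6, −2.29 and −2.39 for WRKY43, and −1.69 and −2.00 for WRKY39. WRKY34 had −1.08 in PI and −2.01 in Young, a difference between genotypes that did not pass. Its other probe sets gave −2.42, −2.54 and −0.81 in PI and −1.95, −2.35 and −0.90 in Young. The last of these did not pass in PI (limma, adjusted p = 0.0750), and the gap between genotypes depends on the probe set. WRKY56, WRKY51, WRKY36 and WRKY37 had −1.45, −1.29, −1.25 and −0.61 in PI, and −1.72, −1.36, −1.53 and −0.89 in Young. The other probe sets of WRKY36 did not pass in PI, with −0.89 and −0.72 (limma, adjusted p = 0.0553 and 0.258). WRKY16 had the smallest fall that passed in both genotypes, with −0.51 in PI and −0.75 in Young, and its PI arrays overlapped.

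The rises with Mg at 72 h were small, and 3 genes passed in both genotypes. The PI arrays of WRKY7 read 8.94, 8.97 and 9.00 without Mg and 9.40, 9.28 and 9.16 with it, and its Young arrays 9.19, 9.08 and 9.09 against 9.53, 9.65 and 9.61. The groups of WRKY7 lay close together but did not overlap. WRKY7 rose by 0.31 ± 0.08 (SE) in PI and 0.47 ± 0.08 in Young (limma, adjusted p = 0.00415 and 7.53e-05). WRKY9 rose by 0.48 in PI and 0.43 in Young (limma, adjusted p = 0.00950 and 0.0137). WRKY35 rose by 0.23 in PI and 0.43 in Young (limma, adjusted p = 0.0139 and 8.23e-05). WRKY24 and WRKY44 passed in PI, with 0.37 and 0.30, and had differences of −0.04 and 0.12 in Young. Some of these small rises lost the call in single alternatives. On the arrays of the comparison alone WRKY35, WRKY24 and WRKY44 no longer passed in PI (limma, adjusted p = 0.109, 0.0836 and 0.0712). In PI, WRKY35 also lost the call without the first array with Al alone or the second with Mg (limma, adjusted p = 0.0828 and 0.0692). WRKY24 lost it in PI without the second array with Al alone or the first with Mg (0.26 and 0.33, limma, adjusted p = 0.141 and 0.0835) and with its second probe set (0.48, limma, adjusted p = 0.0539). In Young, WRKY9 lost it without the first or the third array with Al alone (limma, adjusted p = 0.0551 and 0.0638).

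**Figure D3:**
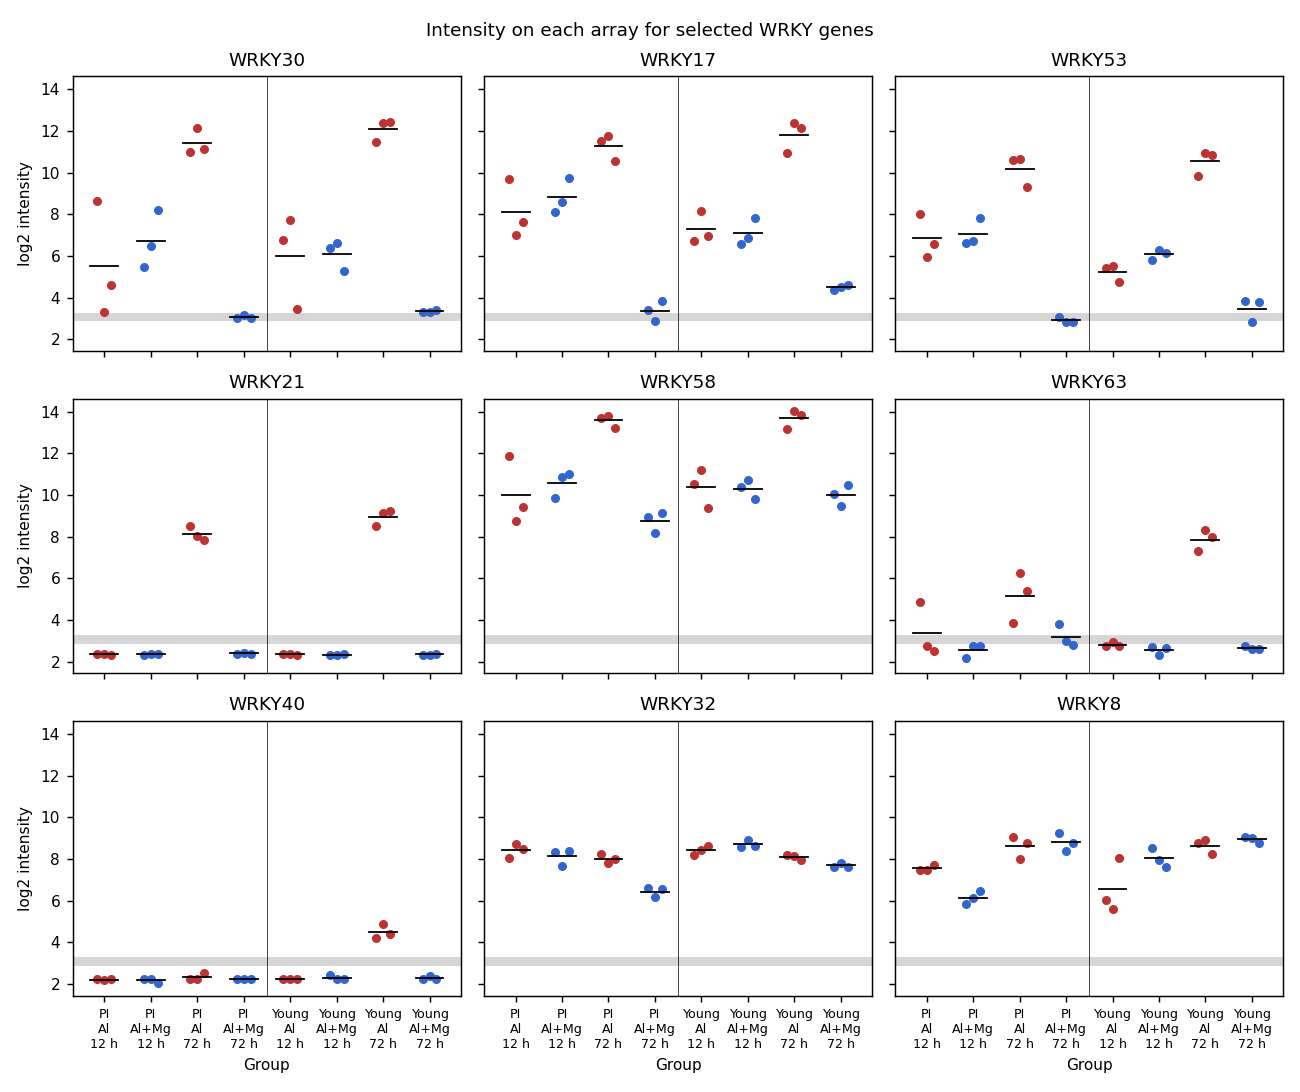
Log2 intensity on each of the 24 arrays for selected WRKY genes, by group, with red points for Al alone, blue points for Al plus Mg, a line at each mean of 3 arrays and a grey band for the background bounds of 2.86 to 3.27. WRKY30, WRKY17, WRKY53 and WRKY21 are high with Al alone at 72 h and low with Mg, WRKY58 falls without reaching the band, WRKY63 and WRKY40 are higher in Young with Al alone at 72 h, and WRKY8 lies between 5.83 and 6.46 with Mg at 12 h in PI.

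For 13 genes the probe set used passed in neither genotype, some of them bright. At 72 h the PI means of WRKY52 were 12.97 ± 0.30 (SD, n = 3) without Mg and 13.22 ± 0.28 with it, and its Young means 13.03 ± 0.15 and 13.08 ± 0.06. Its Mg effect was 0.25 ± 0.15 (SE) in PI and 0.05 ± 0.15 in Young. WRKY33 had Mg effects of −0.33 and −0.29 (limma, adjusted p = 0.143 and 0.185), and its other probe set passed as lower in both, with −0.50 and −0.43 (limma, adjusted p = 0.0205 and 0.0365). WRKY8 and WRKY41 had Mg effects of 0.20 and 0.03 in PI, and 0.29 and −0.01 in Young. The others were WRKY4, WRKY10, WRKY14, WRKY15, WRKY29, WRKY38, WRKY48, WRKY50 and WRKY59. WRKY14 came nearest in PI, at −0.49 with an adjusted p of 0.0508, and WRKY59 in Young, at 0.39 with 0.0534. Other probe sets of 3 of these genes passed in both genotypes. For WRKY48, with −0.13 in PI and 0.22 in Young on the probe set used, the other 2 probe sets gave −1.15 and −1.27 in PI and −1.44 and −1.60 in Young (limma, adjusted p at most 4.67e-04). The second probe set of WRKY14 gave −0.59 and −0.65 (limma, adjusted p = 0.0420 and 0.0225), and that of WRKY59 0.66 and 0.77 (limma, adjusted p = 0.00361 and 7.54e-04). Other probe sets of WRKY4 passed in Young in opposite directions, at −0.61 and 0.74 (limma, adjusted p = 4.99e-04 and 0.00416). Among these 13 genes the call of WRKY33, WRKY48, WRKY14, WRKY59 and WRKY4 thus depends on the probe set.

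At 12 h no WRKY gene passed for the Mg effect in either genotype. In each genotype 0.0293% of all probe sets passed. At an unadjusted limma p under 0.05 there were 2 of the 52 WRKY genes in PI and 8 in Young. Of the 37593 probe sets tested, 1412 in PI and 6396 in Young were also under it. These 2 WRKY counts thus show nothing particular to the family. A fit on the arrays of the comparison alone also called 0 WRKY genes after adjustment. The median Mg effect of the 52 genes at 12 h was −0.01 in PI and 0.17 in Young. WRKY8 had arrays of 7.47, 7.48 and 7.69 with Al alone and 5.83, 6.13 and 6.46 with Mg in PI. In Young it had 6.04, 5.59 and 8.06 with Al alone and 8.52, 7.93 and 7.64 with Mg. The PI groups of WRKY8 did not overlap, and in Young the third array with Al alone lay among those with Mg. The WRKY8 Mg effect was −1.41 in PI and 1.47 ± 0.46 (SE) in Young (limma, adjusted p = 1 and 0.155). WRKY8, WRKY15 and WRKY41 had the smallest p-values in PI, where the Mg effect of WRKY15 was −0.85 (limma, adjusted p = 0.127) and that of WRKY41 −0.70. WRKY15 read 3.56, 3.83 and 4.09 with Al alone and 3.03, 3.10 and 2.82 with Mg, so its PI groups did not overlap, but 2 of the arrays with Mg were at background. In Young, WRKY16 had 0.54 and WRKY41 had 0.98 (limma, adjusted p = 0.158 and 0.170). Without the third Young array with Al alone at 12 h, 4 genes passed as higher in Young, WRKY8 (2.22), WRKY16 (0.65), WRKY22 (0.80) and WRKY41 (1.46). Without the first PI array with Al alone at 12 h, WRKY15 passed as lower in PI (−0.98, limma, adjusted p = 0.0401). The shares of all probe sets that passed in these fits are not given here, so the counts say nothing particular to the family.

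The Mg effect was more negative at 72 h than at 12 h for many members. In PI the difference between the times passed for 17 genes in the lower direction and 4 in the higher, beside 8.03% and 9.32% of all probe sets. In Young it passed for 29 and 2, beside 15.0% and 20.1% of all probe sets. WRKY17 had differences of −8.48 or lower in PI and −7.13 ± 0.88 (SE) in Young (limma, adjusted p = 4.00e-06 and 1.32e-05). WRKY57 had −5.77 ± 0.83 in PI and −4.72 ± 0.83 in Young (limma, adjusted p = 1.37e-04 and 3.21e-04). Higher at 72 h were WRKY9, WRKY24, WRKY44 and WRKY15 in PI, by 0.39 to 0.58 for the first 3, and WRKY7 and WRKY35 in Young, by 0.35 and 0.50. For WRKY15, 5 of the 6 PI arrays with Mg were at background, so its size has no firm value.

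Between 12 and 72 h of Al alone, most WRKY genes that differed were higher at the later time. In PI, 28 rose and 6 fell, beside 15.7% and 23.5% of all probe sets. In Young, 36 rose and 4 fell, beside 20.7% and 29.0%. The median difference was 0.95 in PI and 1.34 in Young, against −0.00 and −0.03 over all probe sets. These time differences share the arrays with Al alone at 72 h with the Mg effects at 72 h, so the 2 sets of values are not independent. Both lists of rises held 26 genes in common, or 92.9% of the PI list and 72.2% of the Young list. The overlap over all probe sets is not given here, so this overlap shows nothing particular to the family. WRKY35, WRKY44, WRKY59 and WRKY7 fell in both genotypes, and WRKY15 and WRKY9 passed as lower in PI.

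At 12 h the arrays with Al alone were uneven for the genes with the largest rises. WRKY30 read 8.63, 3.31 and 4.60 in PI and 6.78, 7.72 and 3.46 in Young, each lower than every array with Al alone at 72 h. The WRKY30 rise with time was 5.91 ± 1.11 (SE) in PI and 6.10 ± 1.11 in Young (limma, adjusted p = 4.82e-04 and 2.04e-04). At 12 h WRKY53 read 8.04, 5.96 and 6.58 in PI and 5.42, 5.53 and 4.77 in Young. It rose by 3.34 ± 0.49 in PI and 5.31 ± 0.49 in Young (limma, adjusted p = 6.41e-05 and 2.74e-07). WRKY21 rose at least 36.8-fold in PI and at least 59.7-fold in Young (limma, adjusted p = 3.18e-14 and 2.55e-15). WRKY57 and WRKY58 rose by 3.75 and 3.57 in PI and by 3.93 and 3.31 in Young. WRKY63 rose at least 27.8-fold in Young (limma, adjusted p = 1.39e-06). The first PI array with Al alone at 12 h was the highest of its group for 21 of the 26 genes that fell with Mg in both genotypes. Their median was 8.52 on that array and 6.55 and 7.02 on the others. Without it 33 genes passed for the time difference in PI, 27 of them higher.

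With Al plus Mg the time differences were mixed. In PI, 15 genes fell and 8 rose, or 28.8% and 15.4%, beside 22.4% and 21.7% of all probe sets. In Young 7 fell and 2 rose, or 13.5% and 3.85%, beside 15.6% and 15.5%. The shares that fell were near those of all probe sets and the shares that rose were lower. The falls thus show nothing particular to the family. The falls common to both genotypes were WRKY17, WRKY32, WRKY44, WRKY53 and WRKY59, or 33.3% of the PI list and 71.4% of the Young list. How far the lists of all probe sets overlap is not given here. WRKY17 read 8.10, 8.60 and 9.74 at 12 h in PI and 6.59, 6.86 and 7.80 in Young, above each of its arrays with Mg at 72 h. Its differences were −5.31 or lower in PI and −2.59 in Young (limma, adjusted p = 3.29e-06 and 0.00424). WRKY53 fell at least 14.4-fold in PI and had −2.57 or lower in Young, and WRKY30 fell at least 11.6-fold in PI. The WRKY30 call was lost with the offset of 32 (−1.85), with its second probe set (−2.52) and without the third PI array with Mg at 12 h (−2.90), with limma adjusted p-values of 0.0572, 0.0797 and 0.0675. WRKY33 and WRKY52 rose in both genotypes, WRKY52 by 0.99 in PI and 0.76 in Young and WRKY33 by 0.51 and 0.62. The second probe set of WRKY33 gave 0.14 in Young (limma, adjusted p = 0.579), so its call there was lost. WRKY8 rose by 2.66 ± 0.46 (SE) and WRKY41 by 1.62 ± 0.33 in PI (limma, adjusted p = 1.74e-04 and 8.09e-04). WRKY54 rose by 0.99 in PI.

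**Figure D4:**
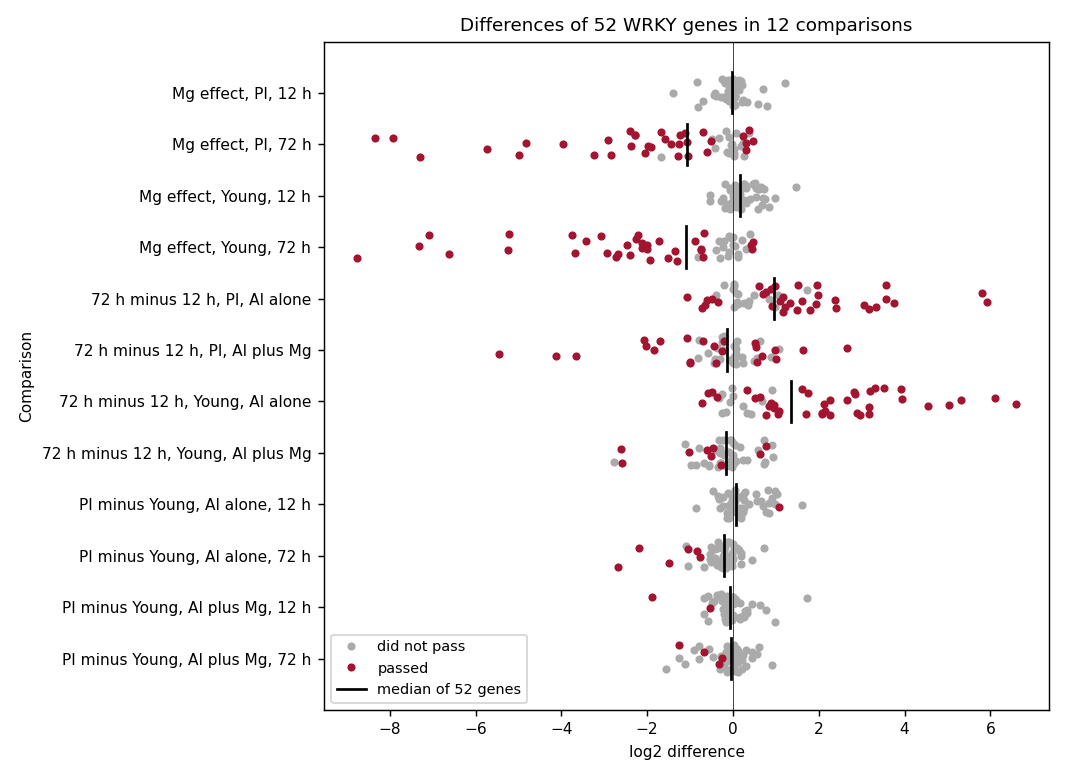
Log2 differences of the 52 WRKY genes (points, with a line at each median) in 12 comparisons, the Mg effects, the time differences and the genotype differences. The Mg effects at 72 h have medians of −1.07 in PI and −1.10 in Young, the time differences with Al alone 0.95 and 1.34, and the remaining medians lie within 0.22 of 0.

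Between the genotypes, the share of WRKY genes that differed was near or under that of all probe sets. PI minus Young passed for 1 gene with Al alone at 12 h, beside 4.21% of all probe sets, and for 6 with Al alone at 72 h, beside 12.6%. With Al plus Mg it passed for 2 genes at 12 h, beside 13.6%, and for 4 at 72 h, beside 9.83%. The 4 counts are 1.92%, 11.5%, 3.85% and 7.69% of the WRKY genes, so they show nothing particular to the family. With Al alone at 72 h the 6 genes were lower in PI, namely WRKY63 (−2.69 ± 0.55, SE), WRKY40, WRKY12 (−1.50 ± 0.38), WRKY64 (−1.05 ± 0.26), WRKY21 (−0.83 ± 0.15) and WRKY22 (−0.77 ± 0.22). WRKY40 read 2.22, 2.23 and 2.51 in PI, at background, and 4.21, 4.88 and 4.40 in Young, so it was at least 2.96-fold lower in PI (limma, adjusted p = 2.27e-09). These 2 groups of WRKY40 did not overlap. WRKY63 read 3.84, 6.28 and 5.38 in PI and 7.30, 8.30 and 7.97 in Young, with no overlap. Each SE is pooled over the 8 groups, which takes in groups at background with little spread, 6 of the 8 for WRKY21. Fitted on the arrays of the comparison alone, 1 gene passed in place of 6. WRKY63, WRKY12 and WRKY21 did not pass in that fit (limma, adjusted p = 0.125, 0.196 and 0.186). Without the second Young array with Al alone at 72 h 3 passed.

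With Al alone at 12 h the gene that passed was WRKY15, at least 1.70-fold higher in PI, since its Young arrays were at background (limma, adjusted p = 5.07e-04). With Al plus Mg at 12 h, WRKY8 (−1.89 ± 0.46, SE) and WRKY10 (−0.54 ± 0.17) were lower in PI (limma, adjusted p = 0.0124 and 0.0496). WRKY10 lost the call in most alternatives. Among them were all probe sets, quantile normalization and the arrays of the comparison alone (limma, adjusted p = 0.0854, 0.0538 and 0.221). WRKY8 lost it without the first Young array with Mg (limma, adjusted p = 0.0672). With Al plus Mg at 72 h, WRKY32 (−1.25), WRKY28 (−0.68), WRKY7 (−0.32) and WRKY35 (−0.25) were lower in PI. For WRKY32 the second probe set gave 0.0271 in the same comparison (limma, adjusted p = 0.95). The second probe set of WRKY28, with a mean of 2.35, was at background and gives no check.

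The Mg effect at 72 h differed between PI and Young for 4 genes, 1 lower and 3 higher in PI minus Young, beside 1.45% of all probe sets. WRKY40 fell in Young and was at background in PI with and without Mg, and the fitted PI minus Young difference in its Mg effect was 2.13 ± 0.17 (SE, limma, adjusted p = 2.13e-06). With the background arrays of WRKY40 at their bounds it was 1.80. WRKY40 passed under every alternative run. WRKY63 had a fitted difference of 3.24 ± 0.78 and WRKY21 of 0.88 ± 0.21 (limma, adjusted p = 0.0484 and 0.0425). With the background arrays at their bounds these 2 were 3.12 and 1.06. The PI arrays of WRKY32 read 8.24, 7.80 and 8.01 without Mg and 6.58, 6.18 and 6.54 with it, and its Young arrays 8.18, 8.14 and 7.93 against 7.63, 7.82 and 7.62. The WRKY32 arrays with Al alone were alike in both genotypes, and with Mg those of PI were lower. Its difference was −1.19 ± 0.28 (limma, adjusted p = 0.0453), and its second probe set gave −0.07 with an adjusted p of 0.932. With the replicate number as a block, WRKY21, WRKY32 and WRKY63 no longer passed (limma, adjusted p = 0.0683, 0.0697 and 0.0753). At 12 h the Mg effect differed between the genotypes for no WRKY gene, beside 0.0133% of all probe sets. At an unadjusted limma p under 0.05 there were 8 of the 52 WRKY genes, beside 6236 of the 37593 probe sets tested. This count thus shows nothing particular to the family. The fit on the arrays of the comparison alone also called 0 WRKY genes after adjustment. WRKY8 came to −2.87 ± 0.65 with an adjusted p of 0.0855. Without the third Young array with Al alone at 12 h, WRKY8, WRKY15, WRKY24 and WRKY41 passed, and the share of all probe sets in that fit is not given here.

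Genes that act beside WRKY factors in plant defence were read from a list of 10, chosen with earlier results of these data known, so the counts are no independent evidence of a direction. With Mg at 72 h in PI 6 fell and 2 rose, beside 13.0% and 20.7% of all probe sets. In Young 5 fell and 1 rose, beside 16.3% and 23.1%. The medians of the 10 were −0.67 and −0.41. At 12 h 0 of the 10 passed in either genotype. EDS1-2, named for a lipase-like regulator of immunity in Arabidopsis, read in PI at 72 h 13.34, 13.23 and 13.00 without Mg and 10.27, 10.23 and 10.23 with it. In Young EDS1-2 read 13.11, 13.67 and 13.35 against 11.17, 11.30 and 11.52, again with no overlap. EDS1-2 fell in both (−2.94 in PI and −2.04 in Young, limma, adjusted p = 5.02e-09 and 2.32e-07). PAD4, which partners EDS1 in Arabidopsis, fell in both (−1.31 and −1.0, limma, adjusted p = 2.66e-05 and 2.70e-04). NDR1b, of a family needed for resistance through certain immune receptors in Arabidopsis, fell in both (−4.61 and −3.20), and NDR1A fell in PI (−1.07) and had −0.53 in Young. The MAP kinase gene MPK4B fell in both (−1.05 and −0.83), as did MAPKK2 (−0.29 and −0.25). MAPK2 rose by 0.27 in PI and 0.47 in Young, and RAR1-1, a co-chaperone gene of immune receptors, rose by 0.24 in PI and had 0.17 in Young. PAL2.1, of the first enzyme of phenylpropanoid synthesis, had −0.16 and −0.28 and RIN4c 0.17 and 0.02, and neither passed.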

How the data were processed

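The values used were intensities deposited by the authors, on a linear scale with 1 value for each probe set of an array. How they were background-corrected, summarised and normalized is not given in the sources used here. Every deposited column was an array of the series (0 columns unused), and array medians were 6.421 to 7.151. Intensities were floored at 1 and taken to log2. Tests used limma 3.58.1 in R 4.3.3, with a mean for each of the 8 groups, 16 residual and 1.13 prior degrees of freedom, and 16 comparisons adjusted each over 37593 soybean probe sets (IDs that start with Gma). The other 23442, with 135 controls left out, gave the background bounds. A group was at background when its arrays were all at or under their bounds, and folds against it used the bounds. Genes were named from a RefSeq-based probe table. WRKY genes with full statistics were those of the largest passing differences without overlap between arrays, up to 8 falls and 6 rises for the Mg effect at 72 h and 4 each way for time and genotype, those passing an interaction with genotype, and the 3 of smallest p where none passed. Members and lists were chosen with earlier results of these data known. Alternatives were quantile normalization, an offset of 32, a signal filter, all probe sets, a trended robust variance, the second probe set, a replicate block, the arrays of a comparison alone and leaving out each array. Equal array medians and background bounds were added after seeing the data. The number of arrays limits the precision.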

Additional observations from a re-analysis of the deposited data

Results flagged for a closer look

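The Mg effect at 72 h differed between PI and Young by a test of that difference for WRKY21 (0.88), WRKY32 (−1.19), WRKY40 (2.13) and WRKY63 (3.24), each as the fitted PI minus Young on the log2 scale. WRKY21 was at background in both groups with Mg, WRKY40 in 3 of its 4 groups and WRKY63 on 5 of its 6 arrays with Mg, and with those arrays at their bounds the differences were 1.06, 1.80 and 3.12. WRKY21, WRKY32 and WRKY63 lost the call with the replicate block and in most fits that left out 1 array. The Mg effect differed between 72 and 12 h, by a test of that difference, for 21 WRKY genes in PI and 31 in Young.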

How the results depend on the processing

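The count of WRKY genes passing for the Mg effect at 72 h, 34 in each genotype, was 24 to 36 in PI and 30 to 38 in Young over the alternatives run. The replicate block gave 34 and 34. The labels' replicate numbers gave no sign of pairing the arrays. Same-numbered arrays deviated from their group means with a median correlation of −0.03 over 84 pairs (−0.43 to 0.41). Other pairs did so with −0.01 over 168 (−0.43 to 0.63). Deviations cancel out within a group and the correlations ranged widely, so these medians cannot exclude pairing. Leaving out 1 array at a time gave, for the Mg effect, 0 to 1 genes in PI and 0 to 4 in Young at 12 h, and 29 to 36 and 30 to 35 at 72 h. For PI minus Young in the Mg effect it gave 0 to 4 at 12 h and 1 to 3 at 72 h, and for 72 h minus 12 h 15 to 23 in PI and 28 to 34 in Young. Time differences gave 28 to 34 (PI, Al alone), 17 to 22 (PI, Al plus Mg), 38 to 40 (Young, Al alone) and 6 to 11 (Young, Al plus Mg). Genotype differences gave 1 to 3 and 3 to 7 with Al alone at 12 and 72 h, and 1 to 2 and 1 to 3 with Al plus Mg. Single arrays moved these small counts: without PI, Al alone, 12 h, array 1 or 2 the genotype difference with Al alone at 12 h was 2, and without Young array 3 it was 3. It was 1 with Al plus Mg at 12 h without PI array 1 or 2 or Young array 1 or 3, and at 72 h 2 without Young array 1 and 1 without Young array 2. For PI minus Young in the Mg effect at 72 h it was 2 without the third Young array with Al alone, and 1 without its second, the third PI array with Al alone, or any of the 6 arrays with Mg. At 12 h it was 1 without the first Young array with Mg or the first PI array with Al alone, and 2 without the third Young array with Mg. The 4 genes of the genotype difference in the Mg effect at 72 h became 1 with all probe sets or the replicate block, and 2 with quantile normalization, the offset of 32, the second probe set or the arrays of the comparison alone. For PI minus Young, the arrays of the comparison alone gave 0 and 1 with Al alone at 12 and 72 h and 1 with Al plus Mg at either time. All probe sets, quantile normalization, the replicate block, the offset and equal array medians each gave 1 with Al plus Mg at 12 h, and background bounds gave 8 at 72 h. Under the second probe set, PI minus Young with Al plus Mg at 72 h turned to 0.0271 for WRKY32, and for WRKY28 it was 0.0225 on a probe set at background, which gives no direction. The cause of these moves was not tested. Shares of all probe sets are not given for the alternatives, so these counts describe stability and not the family against other genes. Over all named genes, 1179 of 1290 alternative values kept direction and call, 98 lost the call, 11 gained it and 2 turned.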

Other observations

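For 26 of the WRKY genes the array holds further probe sets, 51 in all. For the Mg effect at 72 h, 37 of the 51 had the same call as the probe set used in PI and 42 in Young, and 0 had a call opposite to it. In PI 9 did not pass where the probe set used did, and 5 passed where it did not, and in Young these numbers were 2 and 7. The 9 belonged to WRKY23, WRKY24, WRKY28, WRKY32, WRKY34, WRKY36 and WRKY63. These counts do not compare the other probe sets with each other, and for WRKY4 those that passed in Young went opposite ways (−0.61 and 0.74). Over the 26 genes lower with Mg in both genotypes, the first Young array with Al alone at 72 h was the lowest of its group for 21 and the third such PI array for 20.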
